A study of Mus musculus with 4 samples.

Results

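The collagen family was taken as every gene whose symbol reads Col, a type number, the letter a and a chain number, which gave 44 genes of the 24346 in the expression table. mBMSCs are stromal cells grown out of bone marrow, here from the femurs of wild-type mice aged 3 months (strain C57BL/6 in the labels, C57BL/6J in the study's methods), as plastic-adherent primary cultures from which floating blood cells had been washed off before passaging. All 4 samples were transfected with siRNA by Lipofectamine RNAiMAX, 2 with a scramble control (siScr) and 2 with siRNA against Zbp1 (siZBP1), and mRNA was collected 72 h later for sequencing. ZBP1 is a sensor of nucleic acids in the Z conformation, and the study asked which genes change in stromal cells when it is depleted. Which of the study's siRNAs against Zbp1 was used is not stated in the sources used here, nor is it stated whether the replicates came from separate mice or cultures, so that p-values measure the spread between these samples, which may be technical. Values are FPKM, which scale the fragments of a gene to transcript length and to sequencing depth, so that levels can be compared between genes.

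Collagens are the main structural proteins of bone and connective tissue. Chains encoded by separate genes wind into trimers, are hydroxylated and folded in the endoplasmic reticulum, and are secreted, trimmed and crosslinked outside the cell. The fibrillar collagens (types I, II, III, V and XI) form fibrils, and type IV forms the sheet of basement membranes. Type VI forms beaded filaments around cells, and the FACIT collagens (fibril-associated collagens with interrupted helices) coat fibrils. Since many trimers need chains from more than one gene, the levels of partner chains are of interest side by side.

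The targeted gene was lower in both siZBP1 samples. Zbp1 stood at 86.0 and 62.0 FPKM in siScr replicates 1 and 2 and at 11.5 and 11.6 FPKM in siZBP1 replicates 1 and 2, a log2 fold change of -2.56 ± 0.16 (SE), with an adjusted p of 0.00322 by limma (0.0748 and 0.0654 without siZBP1 replicate 1 or 2, with the change at -2.55 and -2.57). Relative sequencing depth, read from the spacing of the lowest values, was 1.39 and 1.87 in the siScr replicates and 1.00 and 1.61 in the siZBP1 replicates. The siScr replicates lay farther apart in the collagens than in other genes. Their median absolute log2 difference was 0.25 over the 22 tested collagens and 0.09 over all 11959 tested genes. Between the siZBP1 replicates these medians were 0.04 and 0.07. In siScr, replicate 1 was the higher in 17 of the 22 tested collagens, against 55.0% of all tested genes. The cultures were not stromal cells alone by their markers. All 8 macrophage markers passed the filter, with 5 higher and 0 lower by limma (6 and 0 at an unadjusted p under 0.05). No share of all tested genes is given at an unadjusted p, here or below, so unadjusted counts have no background beside them. Adgre1, Ptprc and Cd14 did not pass the adjusted threshold. The summed level of the 8 was 4660 and 5547 FPKM in the siScr replicates against 8163 and 7629 FPKM in the siZBP1 replicates. Lyz2 alone gave 2814 and 3647 FPKM of this in siScr and 5871 and 5402 FPKM in siZBP1. Of the 10 mesenchymal stromal markers 5 were lower and 1 was higher. Over all tested genes 14.8% were lower and 13.5% higher. The higher stromal marker was Nt5e, at 2.73 and 5.48 FPKM in siScr against 20.8 and 21.3 FPKM in siZBP1. Sums over the 10 were 552 and 455 FPKM in siScr against 341 and 338 FPKM in siZBP1. Ly6a, which did not pass, gave 254 and 187 FPKM of this in siScr and 160 and 156 FPKM in siZBP1. In bulk RNA, fewer cells of a type and less RNA per cell cannot be told apart, and the part of these marker shifts in the collagen results was not tested.

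Of the 44 collagens, 22 had a mean of at least 1 FPKM over the 4 samples and were tested with the other genes. In ZBP1-depleted mBMSCs 10 of these were lower at an adjusted p under 0.05 (Col1a1, Col2a1, Col4a1, Col4a2, Col6a3, Col8a1, Col8a2, Col12a1, Col15a1 and Col16a1), where 14.8% of all tested genes were lower. Another 3 were higher (Col4a5, Col5a2 and Col5a3), where 13.5% of all tested genes were higher, and 9 did not pass the threshold. Of the 10 called lower, Col2a1 and Col8a2 passed the filter only through siScr, where they are high. The median log2 fold change over the 22 was -0.26, beside 0.0045 over all tested genes, and it was -0.0225 without a filter on low values and -0.43 without siScr replicate 2. By the ratio of group means, 12 of the 41 collagens with values in both groups were over 1.5-fold lower, where 13.8% of all such genes were, and 4 were over 1.5-fold higher, where 10.7% were. The siScr and siZBP1 values did not overlap in 18 of the 22 tested collagens, against 68.4% of all tested genes. Of the 10 collagens called lower, 8 had the higher siScr value in replicate 1, where 55.0% of all tested genes had. Calls were lost with either siZBP1 sample left out: without siZBP1 replicate 1 or without siZBP1 replicate 2, Col4a1 alone stayed past the threshold (adjusted p = 0.0422 and 0.0360) and the adjusted p of the other 12 lay between 0.0794 and 0.227, while the fitted changes moved little (Col1a1 -1.22 and -1.30 against -1.26, and Col16a1, which moved most of the 13 on the log2 scale, -1.67 and -1.41 against -1.54).

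**Figure D1:**
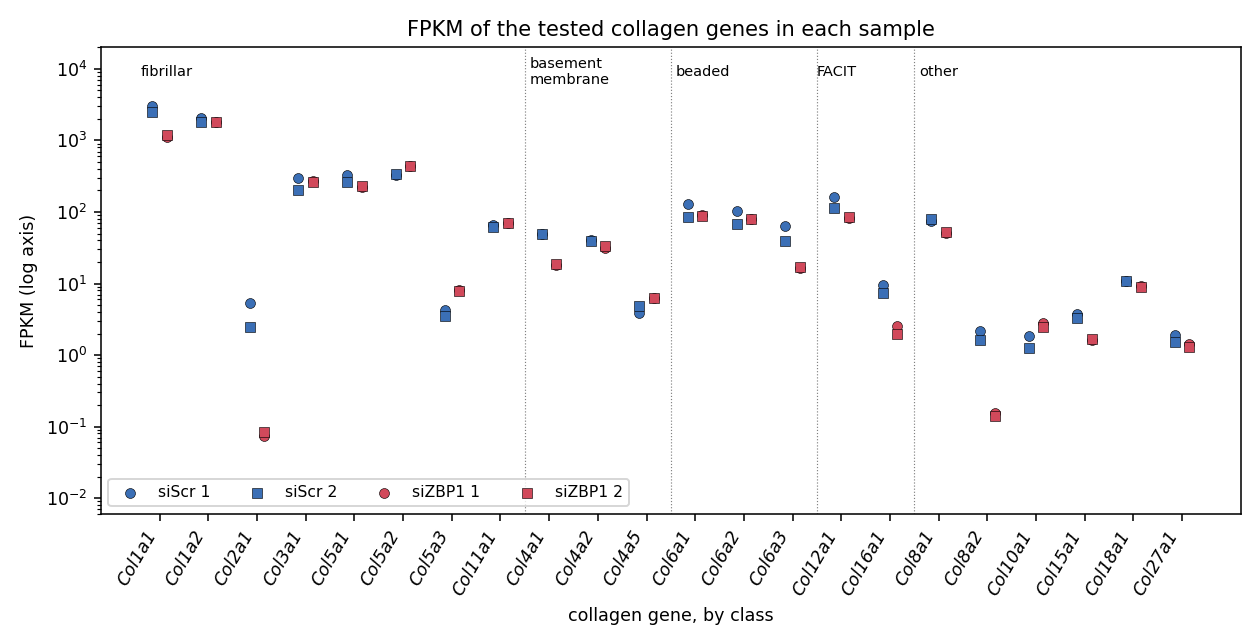
FPKM of the 22 tested collagens in each of the 4 samples, on a log axis, grouped by class, with circles for replicate 1 and squares for replicate 2 of siScr (blue) and siZBP1 (red). The type I chains Col1a1 and Col1a2 stand highest in every sample, Col2a1 and Col8a2 drop below 0.2 FPKM in the siZBP1 samples, and the siScr points of Col3a1, Col6a1, Col6a2 and Col6a3 lie well apart.

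**Figure D2:**
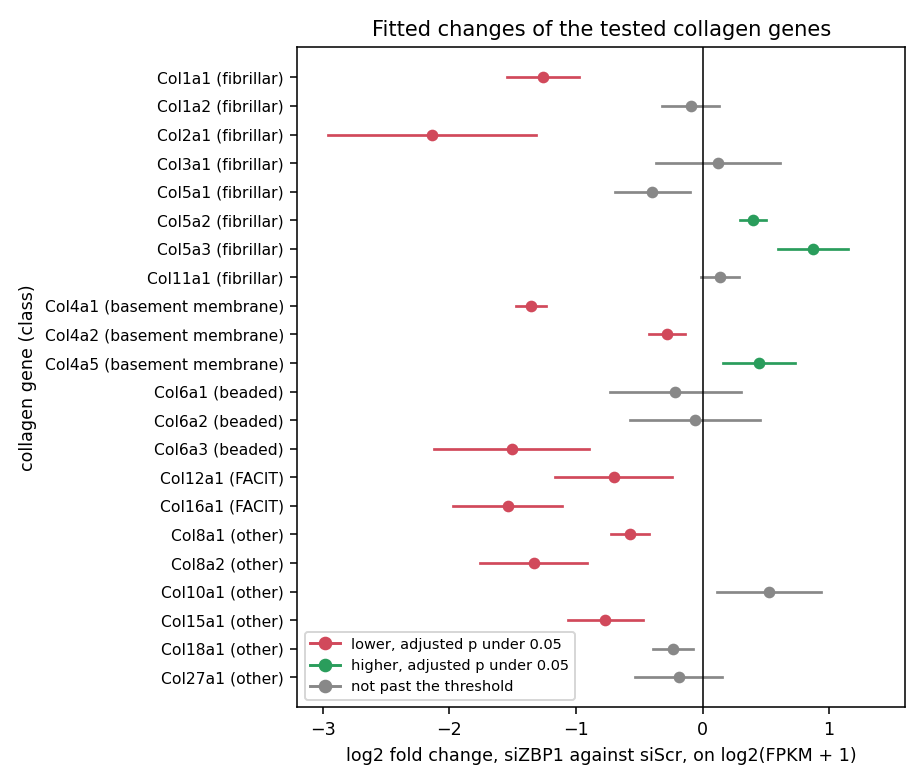
Fitted log2 fold change of siZBP1 against siScr on log2(FPKM + 1) for the 22 tested collagens, with 95% intervals from limma, red for the 10 lower, green for the 3 higher and grey for the 9 that did not pass an adjusted p of 0.05. Chains of one type part from each other, with Col1a1 at -1.26 beside Col1a2 at -0.09, Col4a1 at -1.35 beside Col4a2 at -0.28, and Col6a3 at -1.51 beside Col6a2 at -0.06.

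Among the fibrillar collagens, the chains of type I collagen, the bulk protein of bone matrix, went separate ways. Col1a1 (chr11:94936224-94953042 on GRCm38, plus strand) was measured at 3066 and 2520.1 FPKM in siScr and at 1128 and 1191 FPKM in siZBP1. Both siZBP1 samples lay far under both siScr samples, a 2.41-fold lower mean (2793 ± 386 against 1159.9 ± 44.6 FPKM, SD, n = 2 each), with a log2 fold change of -1.26 ± 0.11 (SE) and an adjusted p of 0.00480. Col1a2 (chr6:4504814-4541544, plus strand), which encodes the other chain of type I collagen, was measured at 2092 and 1806 FPKM in siScr and at 1829 and 1811 FPKM in siZBP1. Its groups overlapped, and its log2 fold change of -0.09 had a 95% interval of -0.32 to 0.13 (adjusted p = 0.450), so that a fall of the size seen in Col1a1 lies outside it. Col1a1 was the most abundant collagen in siScr and Col1a2 was the most abundant in siZBP1.

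Col3a1, the chain of type III collagen, which is found with type I in soft tissue and early repair, was measured at 296 and 201 FPKM in siScr and at 269 and 263 FPKM in siZBP1. The siScr replicates enclosed both siZBP1 values (log2 fold change 0.12, 95% interval -0.37 to 0.62, adjusted p = 0.667). Its direction hung on 1 siScr library: without siScr replicate 1 it was 0.40 (adjusted p = 0.0335) and without siScr replicate 2 it was -0.16 (adjusted p = 0.0734). Col3a1 shares its chromosome segment with Col5a2, the genes lying tail to tail on chromosome 1 with 24614 bases between them.

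Type V collagen, which is buried inside type I fibrils and helps to set their width, had chains that were called higher and a chain that was not called. Col5a2 was measured at 328 and 335 FPKM in siScr and at 435 and 440.0 FPKM in siZBP1. The replicates of each group were close and the groups well apart, and Col5a2 was higher with a log2 fold change of 0.40 ± 0.04 (SE) and an adjusted p of 0.00589. Col5a3, the scarce chain of the type, was measured at 4.32 and 3.54 FPKM in siScr and at 7.99 and 7.97 FPKM in siZBP1, and was higher by 0.87 ± 0.10 on the log2 scale (adjusted p = 0.00897), with a mean ratio of 2.03. Col5a1, the chain that most type V trimers contain, was measured at 332 and 266 FPKM in siScr and at 223 and 228 FPKM in siZBP1. These groups did not overlap, and the log2 fold change of -0.40 just missed the threshold (95% interval -0.69 to -0.10, adjusted p = 0.0614), with an adjusted p between 0.0240 and 0.0954 under other settings with all 4 samples. It passed with the replicate block (0.0392) and without siScr replicate 2 (log2 fold change -0.56, adjusted p = 0.0202), and was -0.24 without siScr replicate 1 (adjusted p = 0.0526).

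Col11a1, a close relative of the type V chains that is best known from cartilage, was measured at 66.5 and 60.9 FPKM in siScr and at 70.8 and 69.3 FPKM in siZBP1, and was not called, with a log2 fold change of 0.14 (95% interval -0.01 to 0.28, adjusted p = 0.141). Col2a1, the chain of the type II collagen of cartilage, was measured at 5.41 and 2.50 FPKM in siScr and at 0.0749 and 0.0827 FPKM in siZBP1. It was a minor transcript in siScr, with replicates differing more than in any other called collagen, and was near 0 in both siZBP1 samples. On log2(FPKM + 1), which understates the change of low genes, it was lower by -2.13 ± 0.31 (SE), with an adjusted p of 0.0131. Col2a1 reached the filter only through its siScr level. Other cartilage markers were low: of 5 chondrocyte markers, Acan and Matn3 were under 0.1 FPKM in every sample, Sox9 alone was tested, at 1.37 to 1.98 FPKM, and did not pass, and the sums were 3.04 and 2.37 FPKM in siScr against 1.77 and 2.30 FPKM in siZBP1. Col11a2, the ninth fibrillar member, had a mean of 0.759 FPKM and was not tested.

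Type IV collagen, the network protein of basement membranes, is assembled most widely from Col4a1 and Col4a2. These genes lie head to head on chromosome 8 and their annotated ends overlap by 22 bases, so that the segment upstream of one is the start of the other. The RefSeq promoters of both genes (GRCm38.p6, 300 bases that reach just past the start) are shown because the genes share this segment and yet differ in the size of their change. Capitals mark CCAAT boxes (CCAAT) and GC boxes (GGGCGG), searched on both strands.
Col4a1, chr8:11312777-11313076, minus strand: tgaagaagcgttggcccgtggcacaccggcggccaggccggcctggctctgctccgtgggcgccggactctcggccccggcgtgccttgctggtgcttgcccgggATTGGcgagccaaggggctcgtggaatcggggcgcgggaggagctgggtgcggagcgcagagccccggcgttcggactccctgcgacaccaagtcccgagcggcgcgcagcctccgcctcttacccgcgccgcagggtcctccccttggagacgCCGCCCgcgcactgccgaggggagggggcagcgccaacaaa
Col4a2, chr8:11312555-11312854, plus strand: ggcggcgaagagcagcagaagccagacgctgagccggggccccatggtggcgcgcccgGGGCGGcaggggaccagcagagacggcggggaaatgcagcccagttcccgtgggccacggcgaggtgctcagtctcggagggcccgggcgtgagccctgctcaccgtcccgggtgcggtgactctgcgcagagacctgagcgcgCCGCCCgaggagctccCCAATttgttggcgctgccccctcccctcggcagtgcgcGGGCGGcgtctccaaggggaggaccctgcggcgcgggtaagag
The GC box just after each start is the same stretch read from opposite strands. Across the 35 collagens with a promoter in the RefSeq table, 12 hold a CCAAT box (34.3%, against 37.9% of all 27025 promoters) and 22 hold a GC box (62.9%, against 35.9%). A RUNX word (TGTGGT) was in 2 (5.71%, against 16.9%), the core of the TCF and LEF site (CTTTGA) was in 8 (22.9%, against 16.2%) and a TATA box (TATAAA) was in 5 (14.3%, against 14.2%). Col1a1, Col2a1, Col5a2 and Col12a1, all called, are among the collagens without a RefSeq promoter and do not enter these shares. A match to such letters is not a bound site.

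Col4a1 was measured at 49.1 and 49.4 FPKM in siScr and at 18.4 and 18.99 FPKM in siZBP1. Its replicates were the tightest among the called collagens relative to the gap between the groups, a 2.63-fold lower mean, and it was lower by -1.35 ± 0.04 (SE) on the log2 scale with an adjusted p of 0.00152. Col4a2 was measured at 39.9 and 38.8 FPKM in siScr and at 31.1 and 33.4 FPKM in siZBP1. Its groups were also apart but closer, a 1.22-fold lower mean with a log2 fold change of -0.28 ± 0.05 (SE, adjusted p = 0.0242). This call was not kept without siScr replicate 1 (adjusted p = 0.09997), without siScr replicate 2 (0.0693) or without a variance trend (0.0503). The intervals of the fitted changes, -1.47 to -1.23 for Col4a1 and -0.42 to -0.14 for Col4a2, do not overlap.

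Col4a5, a chain of the specialised basement membranes of kidney and other tissues, was measured at 3.91 and 4.80 FPKM in siScr and at 6.22 and 6.31 FPKM in siZBP1. It was higher by 0.45 ± 0.11 (SE) on the log2 scale (adjusted p = 0.0427), and lost the call without siScr replicate 1 (adjusted p = 0.0999), without a filter on low values and with the filter set at a mean of 5 FPKM, with an adjusted p of up to 0.0760 in fits of all 4 samples. Its head-to-head neighbour Col4a6, 1308 bases away on chromosome X, was under 0.04 FPKM in every sample, and Col4a3 and Col4a4, another head-to-head pair, with 71 bases between them on chromosome 1, were under 0.08 FPKM. Endothelial cells are a usual source of Col4a1 and Col4a2. Of 5 endothelial markers only Kdr passed the filter, which did not pass the test, Tek was under 0.1 FPKM in every sample, and the sums were 5.29 and 4.52 FPKM in siScr against 4.81 and 5.42 FPKM in siZBP1.

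In the beaded type VI collagen, which links cells to the surrounding matrix as a trimer of Col6a1, Col6a2 and a long chain such as Col6a3, the long chain moved apart from its partners. Col6a3 was measured at 63.0 and 38.7 FPKM in siScr and at 16.4 and 17.1 FPKM in siZBP1. Although the siScr replicates differed widely, both lay above both siZBP1 values, with a 3.04-fold lower mean and a log2 fold change of -1.51 ± 0.23 (SE, adjusted p = 0.0147). Col6a1 was measured at 128 and 85.1 FPKM in siScr and at 91.2 and 88.7 FPKM in siZBP1, and Col6a2 at 103 and 68.8 FPKM against 80.9 and 81.0 FPKM. In both genes the siScr replicates enclosed the siZBP1 values, with log2 fold changes of -0.21 (95% interval -0.73 to 0.30, adjusted p = 0.466) and -0.06 (-0.57 to 0.45, adjusted p = 0.851). Without siScr replicate 2 both would have been called lower (log2 fold changes of -0.51 and -0.35, adjusted p = 0.0227 and 0.0272), and without siScr replicate 1 their signs turned (0.08 and 0.23, adjusted p = 0.261 and 0.0543). Col6a3 stayed lower past the threshold in both of these fits. Col6a4, Col6a5 and Col6a6, the alternative long chains, lay at 0.113 FPKM or less in every sample.

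Of the 9 FACIT collagens 2 were tested and both were lower. Col16a1, found at the surface of small fibrils and near cells, was measured at 9.67 and 7.37 FPKM in siScr and at 2.56 and 1.98 FPKM in siZBP1, a 3.76-fold lower mean with a log2 fold change of -1.54 ± 0.16 (SE, adjusted p = 0.00704). Col12a1, the main FACIT chain of dense connective tissue and bone, was measured at 163 and 113 FPKM in siScr and at 81.6 and 84.8 FPKM in siZBP1. The wide siScr spread left it near the threshold (log2 fold change -0.70 ± 0.18, adjusted p = 0.0456), and with all 4 samples in the fit its adjusted p ranged from 0.0148 to 0.0712 over the other settings. Leaving out siScr replicate 1 gave a log2 fold change of -0.44 (adjusted p = 0.0372), and leaving out siScr replicate 2 gave -0.96 (0.0166). The other 7 FACIT members stayed below 1 FPKM in every sample.

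Among the remaining collagens, both chains of type VIII, a short-chain collagen of vessel walls and remodelling matrix, were lower by very different amounts. Col8a1 was measured at 73.7 and 80.7 FPKM in siScr and at 51.3 and 51.7 FPKM in siZBP1, and was lower by -0.57 ± 0.06 (SE) on the log2 scale with an adjusted p of 0.00616. Its ratio of means stopped just short of the 1.5-fold limit. Col8a2 was measured at 2.18 and 1.63 FPKM in siScr and at 0.156 and 0.139 FPKM in siZBP1, which left little of it in either siZBP1 sample (log2 fold change -1.33 ± 0.16, adjusted p = 0.00892). The ratio of its means was 12.9-fold lower, and it too reached the filter only through its siScr level.

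Types XV and XVIII are related collagens of basement membrane zones that carry anti-angiogenic fragments. Col15a1 was measured at 3.79 and 3.28 FPKM in siScr and at 1.62 and 1.70 FPKM in siZBP1, a 2.13-fold lower mean (log2 fold change -0.77 ± 0.11, adjusted p = 0.0130). Col18a1 was measured at 10.8 and 11.001 FPKM in siScr and at 9.25 and 8.96 FPKM in siZBP1. Its groups were apart by a small step, and with an adjusted p of 0.0505 (log2 fold change -0.23, 95% interval -0.39 to -0.07) it fell on either side of the threshold with the setting (0.0392 to 0.0895 with all 4 samples). Col10a1, the collagen of hypertrophic cartilage, was measured at 1.86 and 1.27 FPKM in siScr and at 2.82 and 2.50 FPKM in siZBP1. With a ratio of 1.70 it was over 1.5-fold, but its log2 fold change of 0.52 missed the threshold (adjusted p = 0.0695), which it passed without small RNA genes in the fit (0.0382). Its exons overlap those of Nt5dc1 on the other strand, and since strand in the counting is not stated, reads of the pair cannot be told apart. The same holds for parts of Col4a1, Col4a2, Col5a1 and Col15a1, while Col3a1 overlaps a microRNA gene on its own strand. In all, 13 collagens have exons that overlap another annotated gene. Col27a1, a fibrillar-like chain of cartilage, was measured at 1.88 and 1.53 FPKM in siScr and at 1.42 and 1.31 FPKM in siZBP1 and was not called (log2 fold change -0.19, adjusted p = 0.337).

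The other 22 collagens were under the filter. Just inside it were Col8a2 and Col27a1 with means of 1.03 and 1.54 FPKM, and just outside it were Col23a1 and Col11a2 with means of 0.798 and 0.759 FPKM. Col23a1, a transmembrane collagen, was measured at 1.07 and 1.14 FPKM in siScr and at 0.513 and 0.467 FPKM in siZBP1, groups that did not overlap. Of the 22, 11 were under 0.1 FPKM in every sample, among them Col6a6 and Col9a2, which were listed at 0 throughout. Of those with values in both groups, 4 were over 1.5-fold lower and 2 over 1.5-fold higher by the ratio of means, with no test at these levels. Among all genes with values in both groups, 13.8% were over 1.5-fold lower and 10.7% over 1.5-fold higher.

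The sum over all collagens was 6850 and 5706 FPKM in siScr and 4363 and 4412 FPKM in siZBP1, or 1.39% and 1.19% against 0.903% and 0.922% of all FPKM of a sample. The groups did not overlap, and the exact permutation test over samples gave a p of 0.333, which is the smallest that 2 samples against 2 allow. Most of this gap was Col1a1. Without it the sum was 3784 and 3186 FPKM in siScr and 3235 and 3221 FPKM in siZBP1, and the groups overlapped (exact permutation p = 1). The make-up of the collagen transcripts shifted accordingly. Type I made up 75.3% and 75.8% of the collagen FPKM in siScr and 67.8% and 68.0% in siZBP1, a difference of -7.65 percentage points. Type V made up 9.71% and 10.6% against 15.3% and 15.3%, type III 4.32% and 3.52% against 6.16% and 5.95%, and type XI 0.981% and 1.08% against 1.64% and 1.58%. Type VI overlapped between the groups, with 4.30% and 3.38% against 4.32% and 4.23%. For types I, V, III and XI the groups were apart and the exact permutation p was again the smallest possible, 0.333.

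**Figure D3:**
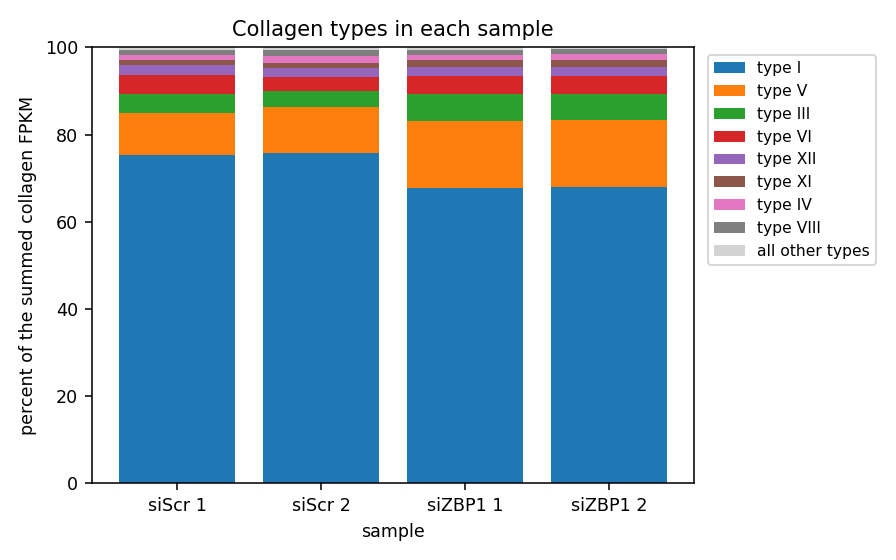
Share of each collagen type in the summed collagen FPKM of each of the 4 samples, in percent. The type I segment is 75.3% and 75.8% in the siScr samples and 67.8% and 68.0% in the siZBP1 samples, and the type V segment above it is 9.71% and 10.6% against 15.3% and 15.3%.

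Ratios of partner chains within a sample do not depend on how libraries were scaled against each other. Col1a2 over Col1a1 was 0.682 and 0.717 in siScr and 1.62 and 1.52 in siZBP1, so that the chain used less often in the type I trimer was the more abundant transcript in ZBP1-depleted mBMSCs. Col3a1 over Col1a1 was 0.0965 and 0.0798 against 0.238 and 0.221. In both ratios the siScr replicates, which differed in the level of Col3a1, lay close together against the gap to siZBP1. Col4a2 over Col4a1 was 0.814 and 0.785 against 1.69 and 1.76, and Col5a2 over Col5a1 was 0.987 and 1.26 against 1.95 and 1.93. Col6a3 over Col6a1 was 0.492 and 0.455 against 0.180 and 0.192, while Col6a2 over Col6a1 moved little, from 0.806 and 0.808 to 0.887 and 0.913. Col8a2 over Col8a1 was 0.0295 and 0.0202 against 0.00304 and 0.00269. In each of these the groups did not overlap, with an exact permutation p of 0.333, the smallest possible.

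**Figure D4:**
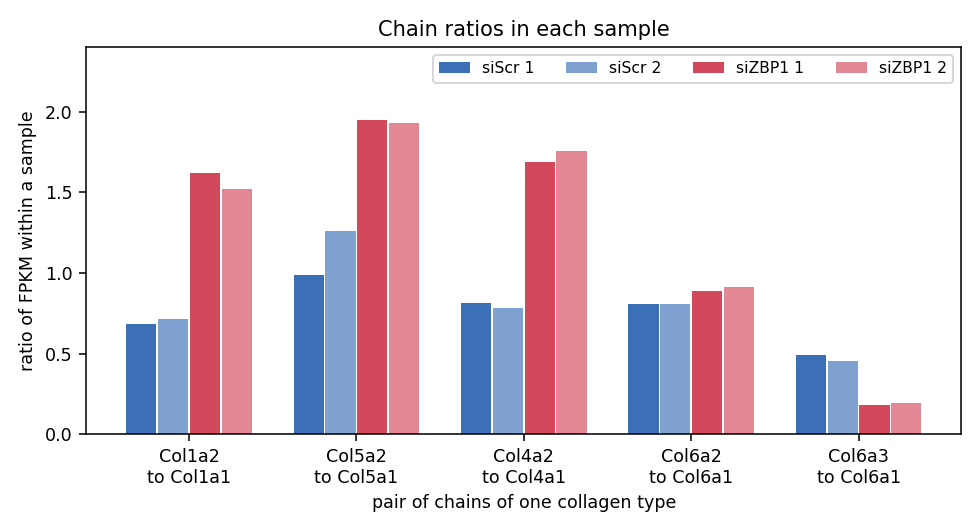
Ratio of FPKM between chains of one collagen type within each of the 4 samples, for siScr (blue) and siZBP1 (red), on an axis that starts at 0. Col1a2 to Col1a1 is 0.682 and 0.717 in siScr and 1.62 and 1.52 in siZBP1, Col4a2 to Col4a1 shows a like step from 0.814 and 0.785 to 1.69 and 1.76, and Col6a2 to Col6a1 stays between 0.806 and 0.913.

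The 3' UTRs of the collagens were read for words that small RNAs pair with, using for each gene the GENCODE M21 transcript with the longest coding part and a 3' UTR. A microRNA or siRNA strand pairs with a transcript mainly through its seed, bases 2 to 8 from its 5' end. The miR-29 family, well known for repressing collagens in fibrosis and bone, is shown first, with the seed in capitals and the sequences from RefSeq.
mmu-miR-29a-3p: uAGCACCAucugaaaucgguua
mmu-miR-29b-3p: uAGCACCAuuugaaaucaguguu
mmu-miR-29c-3p: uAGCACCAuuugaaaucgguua
All 3 share the seed, which matches TGGTGCT in a transcript. This word was in the 3' UTR of 25 of the 44 collagens (56.8%), against 14.3% of the 10868 tested genes with a 3' UTR, although the median 3' UTR was of like length (965 bases in the collagens, 1009 in the tested genes). Of the 22 tested collagens 16 held it, and of these 8 were lower and 3 higher by limma (9 and 3 at an unadjusted p under 0.05). Of the 6 without it 2 were lower and 0 higher by limma (3 and 1 unadjusted). Among all tested genes the shares were close, with 16.2% lower and 14.3% higher with the word and 14.97% and 14.1% without it. The type I partners differ in this: Col1a1 holds the word and Col1a2 does not. The sites of Col1a1, Col3a1 and Col5a2 are shown with the word in capitals.
Col1a1, chr11:94952526-94952555 on GRCm38, plus strand: ggaaggaatttcTGGTGCTatagaagctga
Col3a1, chr1:45348970-45348999, plus strand: aaaatgtctcaaTGGTGCTataataaataa
Col5a2, chr1:45374955-45374984, minus strand: ttcttttaatgaTGGTGCTaaaattatttc
Col1a1 was lower, Col3a1 did not pass the threshold and Col5a2 was higher, so that collagens with the word went in both directions. Mature miR-29 was not measured by these libraries.

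The siRNAs against Zbp1 that the study describes have seeds of their own, and their matching words were looked up in the same 3' UTRs. The word for siZBP1-1, CAGCCAA, was in 8 of the 44 collagens (18.2%), against 10.7% of the tested genes. Among all tested genes with it 28.1% were lower and 9.12% higher, and among those without it 13.6% were lower and 14.7% higher. Of the tested collagens 4 held it, and these sites are shown because 3 of the 4 genes were called lower.
Col4a1, chr8:11198797-11198826 on GRCm38, minus strand: cttcccgtacgaCAGCCAAggcctttgtta
Col8a1, chr16:57625558-57625587, minus strand: cgcttagcaccaCAGCCAAaccatgttgga
Col12a1, chr9:79599547-79599576, minus strand: ggtgggctgcggCAGCCAAgcttctaggtt
Col27a1, chr4:63334454-63334483, plus strand: acctttcgagtgCAGCCAAaccttactgct
Col4a1, Col8a1 and Col12a1 were lower and Col27a1 did not pass the threshold. Of the 18 tested collagens without the word, 7 were lower, Col1a1, Col6a3 and Col16a1 among them, and 3 were higher. The word for siZBP1-2, TCCGGGA, was in 2.09% of the tested genes and among the collagens in Col4a2 alone. Among all tested genes 15.4% with this word were lower, against 15.1% without it.
Col4a2, chr8:11448646-11448675 on GRCm38, plus strand: ggcactagctccTCCGGGAtctaccagcct
Since the siRNA used for the libraries is not stated, the part of these words in the changes was not tested.

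Genes that act on collagen were described from lists chosen with earlier results of these data known. Their counts stand beside the 14.8% of all tested genes that were lower and the 13.5% that were higher, which is a description and not an independent comparison. Of 19 tested genes for hydroxylation, folding and secretion of procollagen, 9 were lower and 3 higher, with a median log2 fold change of -0.22. Serpinh1, the collagen chaperone HSP47, was measured at 492 and 418 FPKM in siScr and at 138 and 147 FPKM in siZBP1 (log2 fold change -1.66, adjusted p = 0.00268). P4ha3, a catalytic subunit of prolyl hydroxylase, was lower by -1.16 and Colgalt1, which adds galactose to hydroxylysine, by -0.52 on the log2 scale (adjusted p = 0.00641 and 0.00401). The catalytic subunits did not move as one: P4ha1 was lower at -0.24 and P4ha2 higher at 0.43, and the lysyl hydroxylases Plod1 and Plod2 were higher at 0.22 and 0.26 while Plod3 was lower at -0.25. P4ha1, P4ha2 and the Plod genes were named after their values were seen.

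Outside the cell, propeptides are cut off and chains are crosslinked. Of 10 tested genes for these steps 5 were lower and 0 higher by limma (6 and 0 at an unadjusted p under 0.05), with a median of -0.28. The lysyl oxidases Loxl1, Loxl4 and Loxl3 were lower by -1.34, -1.07 and -0.84 on the log2 scale (adjusted p = 0.00377, 0.0106 and 0.0260). Loxl1, the most abundant of these, was measured at 60.6 and 50.3 FPKM in siScr and at 20.98 and 21.5 FPKM in siZBP1. The more abundant Lox and Loxl2 moved little. Lox was measured at 696 and 710 FPKM in siScr and at 608 and 633 FPKM in siZBP1 (log2 fold change -0.18, adjusted p = 0.0437). Loxl2 was measured at 188 and 171 FPKM against 175 and 178 FPKM and did not pass (-0.02, adjusted p = 0.808). Lox and Loxl2 were named after their values were seen. Of 8 tested collagen receptors 6 were lower and 0 higher by limma (6 and 0 unadjusted), with a median of -0.82. Itga10, an integrin chain that binds collagen, was measured at 2.17 and 2.48 FPKM in siScr and at 0.411 and 0.312 FPKM in siZBP1 (log2 fold change -1.29, adjusted p = 0.00679), and it passed the filter only through siScr, as did Lum among the fibril-bound proteins. Mrc2, the uptake receptor for collagen fragments, and Itga1 were lower by -1.15 and -1.02 (adjusted p = 0.00219 and 0.00797).

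Of 7 tested genes of collagen degradation 3 were lower and 1 higher, with a median of -0.28. Mmp15, a membrane-bound metalloproteinase, was measured at 0.399 and 0.461 FPKM in siScr and at 2.22 and 2.46 FPKM in siZBP1 (log2 fold change 1.22, adjusted p = 0.00671), and it passed the filter only through siZBP1. Ctsk, the collagen-cutting cathepsin of bone resorption, and Mmp14 were lower by -0.60 and -0.56 (adjusted p = 0.00543 and 0.0211). Of 10 tested proteins that sit on or beside fibrils 7 were lower and 1 higher, with a median of -1.36. The higher one was Fn1, at 1755 and 1712.5 FPKM in siScr and 2502 and 2539 FPKM in siZBP1 (adjusted p = 0.00530). It was named after its values were seen. Sums over the whole list overlapped between the groups, with 6075 and 5568 FPKM in siScr against 5686 and 5740 FPKM in siZBP1. The small proteoglycans Lum, Fmod and Dcn, which bind fibrils and limit their width, were lower by -1.87, -1.81 and -1.70 (adjusted p = 0.0167, 0.00789 and 0.00774). Fmod was measured at 137 and 89.8 FPKM in siScr and at 30.3 and 31.6 FPKM in siZBP1. Of 9 tested transcription factors known at collagen genes 5 were lower and 0 higher by limma (6 and 0 unadjusted), with a median of -0.24. Sp7, the osteoblast factor osterix, was measured at 34.6 and 22.9 FPKM in siScr and at 3.33 and 3.82 FPKM in siZBP1 (log2 fold change -2.68, adjusted p = 0.00401). Scx, the tendon factor that acts on Col1a1, and Egr1 were lower by -1.22 and -1.04 (adjusted p = 0.0272 and 0.00503). Scx lost its call with any 1 of the 4 samples left out (adjusted p = 0.137, 0.109, 0.0876 and 0.0621, log2 fold change -0.87 to -1.56). The other genes given as the 3 largest called changes of a list kept their calls without either siScr replicate and lost them without either siZBP1 replicate, with an adjusted p from 0.0516 to 0.175.

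**Figure D5:**
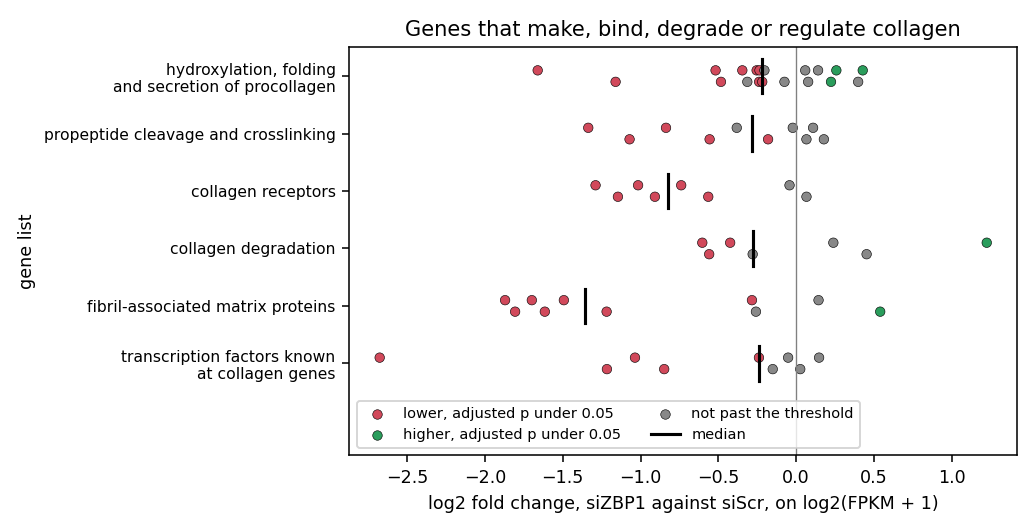
Log2 fold change of siZBP1 against siScr on log2(FPKM + 1) for each tested gene of 6 lists of collagen-related genes, with red for lower and green for higher at an adjusted p under 0.05, grey for the rest and a black bar at the list's median. The fibril-associated proteins and the collagen receptors have the lowest medians, -1.36 and -0.82, and in the first list genes lie on both sides of 0.

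Other cell types that make collagen were followed by their markers. Beside these counts, 14.8% of all tested genes were lower and 13.5% higher. Of 6 osteoblast markers 5 were lower, among them Bglap, which passed the filter only through siScr, and Spp1 alone was higher. Their sums were 1927 and 2957 FPKM in siScr against 4715 and 4507 FPKM in siZBP1, of which Spp1 alone gave 1516 and 2625 against 4651 and 4447 FPKM. All 4 tested smooth muscle markers were lower (Acta2, Tagln, Cnn1 and Actg2), with sums over the 5 listed of 1128 and 1151 FPKM in siScr against 173 and 202 FPKM in siZBP1. Of 3 tendon markers Scx alone was tested and was lower, and Tnmd was at 0 in both siZBP1 samples, with sums of 10.1 and 9.20 FPKM against 2.94 and 4.76 FPKM. Of 2 tested adipocyte markers of 5 listed, Pparg was lower and Fabp4 did not pass the threshold, Plin1 and Lep were listed at 0 in every sample, and the sums were 114 and 118 FPKM against 118 and 128 FPKM. The part of these marker shifts in the collagen changes was not tested.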

How the data were processed

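The authors deposited FPKM values per gene symbol and sample, with group means that equal the means of the replicates. The submitters' processing notes list TopHat, Cufflinks and mm10, while the study's methods give Tophat and HTSeq. Annotation, strand and read numbers are not given in the sources used here, so no counting interval was computed, and relative depth was read from the spacing of low values. Members were found by symbol, and members, lists and ratios were chosen with earlier results of these data known. Of the rows, 4 share 2 symbols turned into dates and none is a collagen. Limma (version 3.58.1, R 4.3.3, variance trend, two-sided, no covariate) was fitted to log2(FPKM + 1) of all 11959 genes whose mean over the samples reached 1 FPKM, and p-values were adjusted by Benjamini and Hochberg over all of them at 0.05. Fold changes are therefore on the log2(FPKM + 1) scale, and intervals are the 95% intervals of the fit. Ratios of group means used 1.5-fold, the study's limit. Single values were compared by two-sided exact permutation over samples. Genes named were Zbp1, collagens with a group mean of at least 10 FPKM or past the adjusted p, those next to the filter, and the 3 largest called changes of each list. Low collagens were also named where they complete a class, and marker genes where they define a cell type. Tested on simulated data for siZBP1 against siScr over 11959 genes, limma called 17 of 50 genes with a true log2 change of 0.5, 35 of 50 with 1, 41 of 50 with 1.5, 49 of 50 with 2, and 6 of 11759 with none. Far fewer genes changed there than were called in the data (14.8% lower and 13.5% higher), and noise was drawn separately for each gene. These counts therefore do not give the share found or falsely called in the data, where replicates can shift many genes together. Alternatives were the pseudocount, the filter, scaling, the variance trend, removal of small RNA genes, the replicate block and leaving out each sample. Gene models came from GENCODE M21 (GRCm38), promoters (35 of 44 collagens) and microRNAs from RefSeq (GRCm38.p6). Col1a1, Col2a1, Col5a2 and Col12a1 are among the collagens without a promoter there. Python 3.11.15, with pandas 2.3.3, numpy 2.4.6, matplotlib 3.10.9 and scipy 1.17.1 did the rest.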

Additional observations from a re-analysis of the deposited data

How the results depend on the processing

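Under the other settings with all 4 samples, 8 to 12 collagens were lower (10 as reported) and 2 to 4 higher (3 as reported). Shares of all genes are given for the reported setting alone: 14.8% lower and 13.5% higher by limma, 13.8% and 10.7% by the ratio of means. The counts below under other settings therefore cannot be read against all genes. Leaving out 1 sample, which leaves a lone sample assumed to vary like the other group, gave 1 to 12 lower and 0 to 3 higher, the low ends by limma without either siZBP1 replicate (9 lower and 2 higher there at an unadjusted p under 0.05). The median log2 fold change was -0.0225 without a filter on low values, where 42 collagens enter, and ranged from -0.43 (without siScr replicate 2) to -0.24 with 1 sample left out. By the ratio of means, 5 of 17 collagens were over 1.5-fold lower with a mean of at least 5 FPKM (9 to 12 with 1 sample left out), and over 1.5-fold higher there were 1 with that filter, 1 with 1 FPKM added to both means and 3 to 8 with 1 sample left out. With 1 sample left out, log2 fold changes ranged from -0.20 to 0.0111 for Col1a2, from -0.51 to 0.0784 for Col6a1, from -0.35 to 0.23 for Col6a2 and from -0.16 to 0.40 for Col3a1, the signs turning without siScr replicate 1 for the first 3 and without siScr replicate 2 for Col3a1. The causes were not tested. The type I share difference ranged from -7.90 to -7.39 percentage points, that of Col3a1 to Col1a1 from 0.132 to 0.1499 and that of Col1a2 to Col1a1 from 0.820 to 0.922 with 1 sample left out. Replicate numbers are shared between the groups, and whether they pair the samples is not stated. The correlation of the replicate differences over 11959 genes was -0.06, which cannot settle this. With the replicate block 11 collagens were lower and 3 higher, with Col5a1 added and none lost. Read numbers are not given, so what depth limits for the collagens under 1 FPKM is unknown, and 2 samples a group limit every test.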
